A study of Mus musculus with 19 samples.

Results

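The liver's response to lactation was measured in 2 sets of Balb/c mice that carried different ranges of animal numbers, and the 2 responses were compared gene by gene. Of the 19 mice with liver RNA sequencing, 13 entered the comparison. Each mouse is named by its stage and animal number. Under animal number 200 there were 3 nulliparous mice (NUL_1, NUL_4 and NUL_13) and 3 mice at lactation day 10 (LAC_36, LAC_102 and LAC_133). At 200 and above there were 4 nulliparous mice (NUL_220, NUL_221, NUL_226 and NUL_227) and 3 mice at lactation day 10 (LAC_200, LAC_213 and LAC_240). The other 6 mice, at involution day 6, all had numbers of 200 and above and took no part in the comparison. Every mouse was a separate female, labelled Balbc and 12 weeks of age, with no genetic modification or drug named. The methods name 2 suppliers of Balb/c mice, Charles River Laboratories and The Jackson Laboratory, but neither they nor the labels say which mouse came from which supplier, and no batch, litter or substrain is given. The ranges of animal number are therefore only that, and whatever else differed between them cannot be told apart from the number.

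In rodents, the liver takes on a large metabolic load during lactation. It supplies triglyceride, cholesterol and glucose for milk, makes more bile acid, and activates less thyroid hormone while the dam eats far more than before mating. Synthesis of fatty acids and sterols is controlled largely by the SREBP transcription factors, oxidation of fatty acids by the nuclear receptor PPARa, and bile acid synthesis by the nuclear receptor FXR and by FGFR4 signaling. Inbred lines of one strain kept by different breeders can carry different alleles of single liver genes, of which Zhx2, a repressor of fetal liver genes, is a known example in Balb/c.

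Expression was given as TPM, a unit of transcript abundance that is scaled for transcript length and sums to the same total in each mouse. Sequencing depth is not known from TPM, and precision is known only from the spread between mice. Between 11209 and 11623 genes reached 1 TPM per mouse, and the 10 most abundant genes took 25.7 to 31.2% of the total. The hepatocyte genes Alb (42481 to 127179 TPM) and Hnf4a (111 to 215 TPM) were abundant in all 13 mice. In a principal component analysis, the ranges of animal number lay apart along component 1 (37.5% of the variance), at -32.7 to -21.3 under 200 and 18.8 to 27.0 at 200 and above. Along component 2 (19.6%) the stages lay apart in both ranges, with nulliparous mice at 11.5 to 24.1 and lactating mice at -24.0 to -13.6. Mitochondrially encoded transcripts took 13.4 to 14.6% of TPM under 200 and 10.2 to 13.3% at 200 and above, and their part in the comparisons below was not tested.

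**Figure D1:**
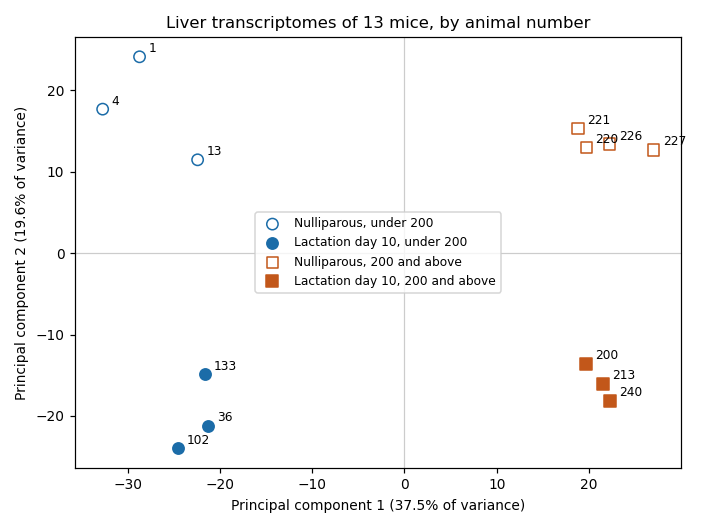
Principal components 1 (x axis, 37.5% of variance) and 2 (y axis, 19.6%) of log2(TPM + 1) over the genes tested, 1 point per mouse for the 13 mice compared, with stage and range of animal number marked. The 2 ranges lie on opposite sides of 0 along component 1, and nulliparous and lactating mice on opposite sides of 0 along component 2.

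The first question was how many genes responded to lactation in each range. Genes whose mean over the 13 mice reached 1 TPM were tested, 11535 in all. A gene was called at a Benjamini-Hochberg adjusted p under 0.05 in limma with a log2 difference of at least 1 in size, and all log2 differences here are on the log2(TPM + 1) scale. Below, rose and fell are used of genes with an adjusted p under 0.05, with the size beside them. Under 200, 104 genes rose in lactation and 71 fell past both thresholds, which is 0.902% and 0.616% of the genes tested. At 200 and above, 171 genes were called, 69 of them lower, and rises and falls made up 0.884% and 0.598% of the genes tested. The share of rises, 59.6% at 200 and above, moved to 70.2% (120 higher and 51 lower) under median-ratio scaling and 68.5% (113 and 52) under quantile normalization. Without the threshold on size, 767 genes rose (6.65%) and 801 fell (6.94%) under 200, and 367 rose (3.18%) and 702 fell (6.09%) at 200 and above, the latter moving to 588 and 411 under median-ratio scaling. Groups of 3 and 4 mice did not overlap for 21.5% of genes at 200 and above, and groups of 3 and 3 for 34.5% under 200.

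Of the genes called in each range, 70 (0.607% of genes tested) were called in both in the same direction, 47 higher and 23 lower. These were 40% of the list under 200 and 40.9% of the list at 200 and above. In all 70 the nulliparous and lactating mice did not overlap in either range, against 9.39% of all genes apart in both. The 70 were chosen by their differences in these same mice, so the lack of overlap adds no separate support. No gene was called in opposite directions by limma, and the count was also 0 at an unadjusted p under 0.05 with a size of 1 or more in both ranges. Over all genes the 2 responses, which share no mouse, had a Pearson r of 0.50 and a Spearman rho of 0.44 across genes, which are not independent replicates. The sign was the same in both ranges for 62.2% of all genes, for 91.4% of the genes called under 200 and for 95.3% of those called at 200 and above.

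**Figure D2:**
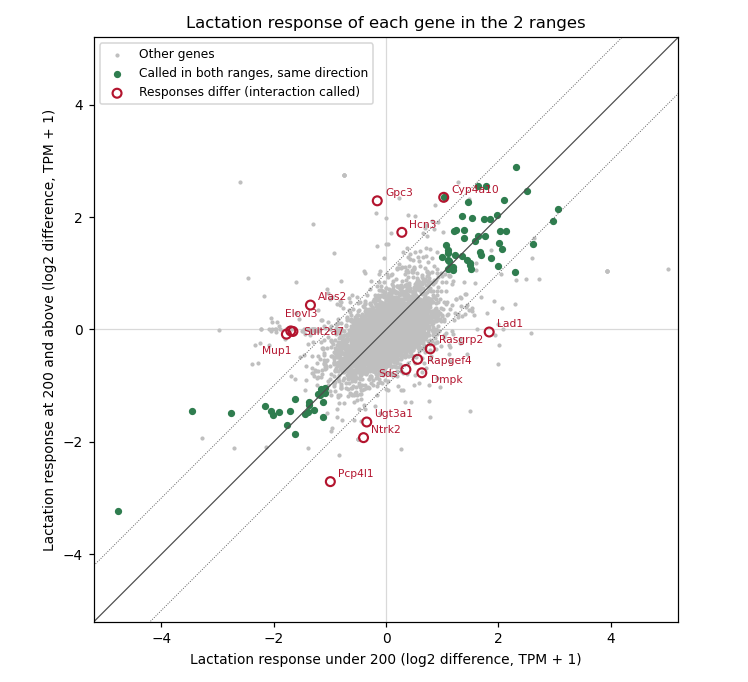
Lactation response of each gene as the log2(TPM + 1) difference, lactation day 10 minus nulliparous, in mice numbered under 200 (x axis) and 200 and above (y axis), for 11535 genes. Genes called in both ranges (70) and genes whose responses were called different (15) are marked, and the diagonal is where the responses are equal.

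The comparison itself is the difference of the responses, the response at 200 and above minus the response under 200. It was called for 15 genes (0.130%), with 7 more positive and 8 more negative at 200 and above, and at an adjusted p under 0.05 with no threshold on size for 22 genes (0.191%). The 95% interval of the difference missed 0 for 1703 genes, or 14.8%. The number of calls changed with single mice left out, while the sizes moved less. Without LAC_36, limma called 0 genes, with 1489 at an unadjusted p under 0.05 and a smallest adjusted p of 0.0541 (Sult2a7), and the largest move among the 15 log2 differences was 0.09. The counts were 5 without LAC_213 and 7 without LAC_133, with largest moves of 0.15 and 0.22. The sign of the difference was kept for each of the 15 genes in every setting in which the gene was tested. The genes were chosen for large differences in these same mice, so the kept sign adds no separate support.

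A gene can fail this test because its responses are alike or because the interval is wide. The mean of the 2 responses called 85 genes higher (0.737%) and 54 lower (0.468%). Of these 139 genes, 5 had responses called different (Gpc3, Hcn3, Cyp4a10, Pcp4l1 and Ntrk2), 40 (28.8%) had a 95% interval of the difference that lay within a 2-fold range to either side, and 94 could be placed in neither class. Over all genes tested, 86.0% had such an interval. The median half-width of the interval was 0.78 on the log2 scale among the 139 genes and 0.38 among all genes, so the genes with large responses were measured with wider intervals than most.

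The 15 genes whose responses were called different fell into 4 kinds, and their values by mouse are given below in the order of the animal numbers above. In the first kind the 2 responses had opposite signs. Alas2 (ENSMUSG00000025270.13, chromosome X, 150547375 to 150570638, plus strand, GRCm38) encodes the erythroid form of the first enzyme of heme synthesis. Under 200 its TPM were 16.1, 16.8 and 18.5 in nulliparous and 5.98, 6.34 and 6.09 in lactating mice, and at 200 and above 5.77, 3.99, 7.18 and 4.66 and 7.63, 6.14 and 8.96. Every lactating mouse under 200 was below every nulliparous mouse of that range, while at 200 and above the groups overlapped. Alas2 fell by 1.35 on the log2 scale under 200 (SE 0.16, adjusted p = 0.000652), with a linear ratio of 0.357, against a difference of 0.43 (adjusted p = 0.102) at 200 and above, and the responses differed by 1.78 (95% interval 1.29 to 2.27, adjusted p = 0.0184). Nulliparous mice at 200 and above were lower than those under 200 (-1.53, adjusted p = 3.62e-05), whereas lactating mice of the 2 ranges differed by 0.25 (adjusted p = 0.336).

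Alas2 is also a marker of immature red blood cells, so the other red cell markers were read beside it. The summed TPM of the red cell list was 1301 to 2010 and 1331 to 1938 in nulliparous and lactating mice under 200, and 1144 to 2408 and 2253 to 3337 at 200 and above. The beta-globin genes Hbb-bs and Hbb-bt rose at 200 and above by 0.85 (adjusted p = 0.0197) and 0.98 (adjusted p = 0.0183), and their log2 differences under 200 were -0.03 and 0.02. The difference of the responses was positive for all 5 members tested, called only for Alas2, and its interval missed 0 for 3. The 5 members are not independent replicates. Slc4a1, a red cell membrane gene, was at most 0.35 TPM in any mouse. Blood left in the tissue, its cells and their RNA cannot be told apart from expression in liver cells here, and their part in the Alas2 result was not tested.

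Dmpk (ENSMUSG00000030409.15, chromosome 7, 19083849 to 19093821, plus strand), a serine/threonine kinase best known from myotonic dystrophy, moved in opposite directions. Its TPM under 200 were 12.1, 7.23 and 11.1 in nulliparous and 17.6, 12.9 and 17.8 in lactating mice, and at 200 and above 14.4, 13.4, 14.7 and 11.2 and 8.12, 7.56 and 6.67. The groups did not overlap in either range, with lactating mice above nulliparous ones under 200 and below them at 200 and above. Dmpk rose by 0.64 (adjusted p = 0.0323) under 200 and fell at 200 and above (-0.77, adjusted p = 0.0115), and the responses differed by -1.41 (95% interval -1.92 to -0.89, adjusted p = 0.0373).

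Rapgef4 (ENSMUSG00000049044.16, chromosome 2, 71981240 to 72257474, plus strand) encodes EPAC2, an exchange factor for the small GTPase RAP that is activated by cyclic AMP. Mice under 200 had 32.9, 29.4 and 34.05 TPM when nulliparous and 50.4, 51.1 and 42.1 when lactating, and mice at 200 and above 44.3, 44.9, 53.4 and 52.3 and 32.7, 37.5 and 30.1. Again the groups were apart in both ranges and in opposite order. The linear ratio of lactating to nulliparous means was 1.49 under 200 (log2 difference 0.56, adjusted p = 0.00791) and 0.686 at 200 and above (-0.53, adjusted p = 0.00795), a difference of -1.09 (95% interval -1.42 to -0.76, adjusted p = 0.0198). Rasgrp2 (ENSMUSG00000032946.16, chromosome 19, 6399340 to 6415216, plus strand), another exchange factor for RAP that responds to calcium and diacylglycerol, had 15.2, 13.6 and 12.8 TPM in nulliparous and 26.4, 23.5 and 23.8 in lactating mice under 200, and 14.4, 11.8, 11.4 and 12.98 and 8.34, 9.42 and 11.6 at 200 and above. It rose under 200 by 0.79 (adjusted p = 0.00216). At 200 and above its groups overlapped, with a log2 difference of -0.34 (adjusted p = 0.0740), and the responses differed by -1.13 (95% interval -1.48 to -0.78, adjusted p = 0.0198).

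Sds (ENSMUSG00000029597.14, chromosome 5, 120476526 to 120483932, plus strand), serine dehydratase, turns serine into pyruvate for gluconeogenesis and is a classic fasting- and protein-responsive liver enzyme. Under 200 it was at 150.0, 166 and 178 TPM in nulliparous and 224, 179 and 231 in lactating mice, and at 200 and above at 294, 245, 259 and 322 and 171, 154 and 185. The lactating mice were above all nulliparous mice in the first range and below all of them in the second. Sds fell at 200 and above (-0.71, adjusted p = 0.00286), while its log2 difference of 0.35 under 200 had an adjusted p of 0.0765. The responses differed by -1.06 (95% interval -1.43 to -0.70, adjusted p = 0.0238). Sds, Dmpk and Rapgef4 were the 3 called genes whose groups did not overlap in either range in opposite directions, a pattern that 93 genes (0.806%) showed over the whole table, against 1083 (9.39%) apart in the same direction.

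Without a threshold on size, 7 genes passed an adjusted p under 0.05 in both ranges in opposite directions. Besides Dmpk and Rapgef4 these were Impact, Gstm5, Ugt3a2, the immunoglobulin segment Ighv2-9 and the gene model Gm43012. Ugt3a2, a glycosyltransferase closely related to Ugt3a1, rose by 0.30 (adjusted p = 0.0456) under 200 and fell at 200 and above (-0.31, adjusted p = 0.0374), and the difference of -0.61 was not called (adjusted p = 0.105). The differences for Ighv2-9 (-1.77, adjusted p = 0.107) and Gm43012 (-1.40, adjusted p = 0.0611) were not called either, and these 3 genes were named after their values were seen.

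The second kind responded past both thresholds at 200 and above only. Gpc3 (ENSMUSG00000055653.13, chromosome X, 52272426 to 52613950, minus strand), a cell surface proteoglycan that the liver expresses before birth and silences later, had the largest difference of the 15. Its TPM under 200 were 0.78, 1.05 and 0.52 in nulliparous and 0.48, 0.68 and 0.61 in lactating mice, and at 200 and above 1.5, 1.70, 4.47 and 4.8 and 13.7, 18.6 and 21.7. The 3 lactating mice at 200 and above were higher than all other mice. Gpc3 rose by 2.29 there (SE 0.28, adjusted p = 0.000605), with a linear ratio of 5.78, against a log2 difference of -0.16 (adjusted p = 0.764) under 200, and the responses differed by 2.45 (95% interval 1.56 to 3.34, adjusted p = 0.0373). With a pseudocount of 0.5 the adjusted p was 0.0509, and Gpc3 was called in 7 of 21 alternative settings. Under 200 its nulliparous and lactating means were 0.78 and 0.59 TPM. The limit given below for genes close to 0 in one range therefore applies to Gpc3 too.

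Hcn3 (ENSMUSG00000028051.10, chromosome 3, 89146074 to 89160196, minus strand) encodes a cation channel of the pacemaker family. Nulliparous and lactating mice under 200 overlapped, at 1, 1.90 and 2.20 TPM and 2.14, 2.35 and 2.16 TPM. At 200 and above the values were 3.62, 2.72, 2.85 and 2.45 and 10.2, 13.05 and 12.5, so that the lactating mice of this range stood apart from the other 10 mice. Hcn3 rose there by 1.73 (adjusted p = 8.02e-05) against 0.28 (adjusted p = 0.275) under 200, a difference of 1.45 (95% interval 0.95 to 1.94, adjusted p = 0.0235). Ugt3a1 (ENSMUSG00000072664.11, chromosome 15, 9276888 to 9315032, plus strand), a glycosyltransferase for small molecules, was the gene called in most alternatives (21 of 22). It was at 111, 119 and 119.8 TPM in nulliparous and 94.3, 91.7 and 88.6 TPM in lactating mice under 200, and at 23.9, 29.0, 26.3 and 18.9 and 5.93, 8.11 and 7.31 TPM at 200 and above. The groups were apart in both ranges with lactating mice lower, and all mice at 200 and above were lower than all mice under 200. The linear ratio was 0.786 under 200 (log2 difference -0.34, adjusted p = 0.107) and 0.290 at 200 and above (-1.65, adjusted p = 2.75e-05), and the responses differed by -1.30 (95% interval -1.70 to -0.90, adjusted p = 0.0198).

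In the third kind the direction was shared and the size was not. Cyp4a10 (ENSMUSG00000066072.13, chromosome 4, 115518264 to 115533649, plus strand), a fatty acid omega-hydroxylase and a standard PPARa target, was the only gene of the 15 called in both ranges. Under 200 it was at 593, 794 and 964 TPM in nulliparous and 1527, 1559 and 1610.3 TPM in lactating mice. At 200 and above it was at 46.9, 51.5, 42.7 and 48.1 and 217, 275 and 246 TPM, so that lactating mice of this range were still below all nulliparous mice under 200. Its linear ratio was 2.00 under 200 (log2 difference 1.03, adjusted p = 0.00160) and 5.202 at 200 and above (2.35, adjusted p = 4.61e-06), and the responses differed by 1.33 (95% interval 0.90 to 1.76, adjusted p = 0.0213). Cyp4a genes are close paralogs, and RSEM may divide reads among them.

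Pcp4l1 (ENSMUSG00000038370.6, chromosome 1, 171173262 to 171196268, minus strand), a small protein related to the calmodulin regulator Pcp4, fell in both ranges. Its TPM were 15.0, 23.9 and 17.7 in nulliparous and 8.97, 8.48 and 8.96 in lactating mice under 200, and 43.7, 36.5, 45.7 and 52.8 and 4.14, 7.59 and 6.57 at 200 and above. Nulliparous mice at 200 and above were the highest of the 4 groups, and lactating mice of that range the lowest. The linear ratios were 0.468 (log2 difference -0.99, adjusted p = 0.00762) and 0.137 (-2.71, adjusted p = 9.66e-06), a difference of -1.72 (95% interval -2.29 to -1.14, adjusted p = 0.0235).

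In the fourth kind the gene was close to 0 in one range, so that there was little expression on which a response could be measured. For these genes a called difference does not show that the response depended on the range. Mup1 (ENSMUSG00000078683.9, chromosome 4, 60498012 to 60501960, minus strand), a major urinary protein that carries pheromones, was at 114, 84.6 and 153 TPM in nulliparous and 36.3, 40.2 and 23.7 TPM in lactating mice under 200 and at no more than 0.31 TPM in any of the 7 mice at 200 and above. Elovl3 (ENSMUSG00000038754.5, chromosome 19, 46131897 to 46135694, plus strand), a very long chain fatty acid elongase, was at 9.13, 9.11 and 15.1 and 3.14, 2.65 and 2.20 TPM under 200 and at most 0.08 TPM at 200 and above. Sult2a7 (ENSMUSG00000094156.2, chromosome 7, 14465051 to 14494230, minus strand), a sulfotransferase for steroids and bile acids, was at 5.25, 8.19 and 6.53 and 1.63, 1.11 and 1.48 TPM under 200 and at most 0.07 TPM at 200 and above. All 3 fell in lactation under 200, Mup1 by 1.77 (adjusted p = 0.000652), Elovl3 by 1.70 (adjusted p = 0.000151) and Sult2a7 by 1.66 (adjusted p = 8.64e-05), with no overlap of the groups. The differences of the responses were 1.69 (adjusted p = 0.0465), 1.67 (adjusted p = 0.0198) and 1.62 (adjusted p = 0.0184).

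Lad1 (ENSMUSG00000041782.14, chromosome 1, 135818598 to 135833342, plus strand), an anchoring filament protein of epithelia, moved the other way under 200, at 1.02, 0.24 and 1.25 TPM in nulliparous and 5.89, 5.04 and 5.14 TPM in lactating mice, against no more than 0.21 TPM in any mouse at 200 and above. It rose by 1.83 under 200 (adjusted p = 0.000173) and the responses differed by -1.88 (95% interval -2.43 to -1.33, adjusted p = 0.0198). Ntrk2 (ENSMUSG00000055254.15, chromosome 13, 58806569 to 59133970, plus strand), the receptor for brain-derived neurotrophic factor, was low under 200, at 0.39, 0.11 and 0.60 TPM in nulliparous and 0.04, 0.01 and 0.02 TPM in lactating mice, and at 4.25, 3.30, 2.60 and 3.63 and 0.05, 0.21 and 0.23 TPM at 200 and above. The lactating mice were lower than the nulliparous mice in both ranges. Its linear ratios of 0.0636 and 0.0474 were close, while the log2 differences were -0.40 (adjusted p = 0.121) and -1.92 (adjusted p = 3.57e-05). The called difference of -1.52 (adjusted p = 0.0202) became -1.88 (adjusted p = 0.0509) with a pseudocount of 0.5 and -2.05 (adjusted p = 0.196) with a pseudocount of 0.1, so that it grew in size and was no longer called. Of the 15 genes, 6 had a group with a mean under 1 TPM (these 5 and Gpc3). When every one of the 4 groups had to reach a mean of 1 TPM, 9 genes were called, all of them among the 15, and with a pseudocount of 0.1, 7 of the 15 stayed called.

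**Figure D3:**
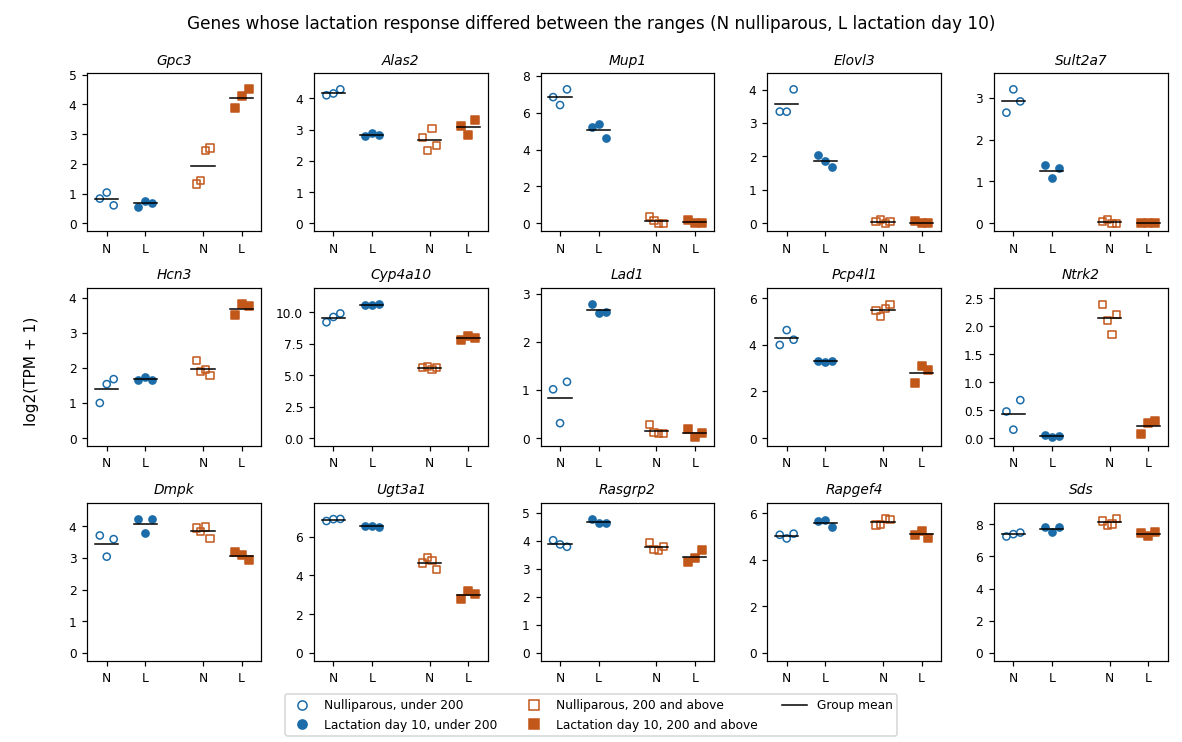
Expression per mouse as log2(TPM + 1) (y axes, each panel with its own scale from 0) for the 15 genes whose lactation responses were called different between the ranges of animal number. Points are mice, in the order nulliparous and lactation day 10 under 200, then nulliparous and lactation day 10 at 200 and above, and lines mark group means; Dmpk, Rapgef4 and Sds stand higher in lactating mice under 200 and lower in lactating mice at 200 and above.

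A further 7 genes passed an adjusted p under 0.05 with a difference below 1 in size. More positive at 200 and above were Ces2e, a carboxylesterase (0.89, adjusted p = 0.0221), and the glutathione transferases Gstm4 (0.87, adjusted p = 0.0465) and Gstm5 (0.56, adjusted p = 0.0201). More negative were Impact, an inhibitor of the amino acid-sensing kinase GCN2 (-0.84, adjusted p = 0.0221), the kinase Gsk3b, which restrains glycogen synthesis (-0.76, adjusted p = 0.0465), the kinase-like Stk40 (-0.60, adjusted p = 0.0235) and the zinc finger gene Zfp236 (-0.73, adjusted p = 0.0465). Ces2e and the Gstm genes have close paralogs, between which RSEM may divide reads.

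Many of these genes also differed between the ranges within a stage. Among nulliparous mice, 325 genes (2.82%) were called different between the ranges in either direction, and among lactating mice 316 (2.74%). The 15 genes included 9 and 10 of these. The difference of the responses equals the range difference in lactating mice minus that in nulliparous mice. A called gene must therefore differ between the ranges in at least 1 stage, and the overlap adds no separate support. At an adjusted p alone, 2314 genes (20.1%) were higher at 200 and above in nulliparous mice and 960 (8.32%) were lower. Under median-ratio scaling these became 1431 higher and 1591 lower, so the excess of higher genes was not kept. In lactating mice 890 (7.72%) were higher and 775 (6.72%) lower, which became 845 and 875. As deposited, the median log2 difference between the ranges over all genes was 0.10 in nulliparous and 0.04 in lactating mice.

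Zhx2 and 3 fetal liver genes that it is known to repress were read together with Gpc3. Zhx2 (ENSMUSG00000071757.10, chromosome 15, 57694665 to 57839832, plus strand) was at 2.79, 2.36 and 2.64 TPM in nulliparous and 3.73, 3.14 and 3.48 TPM in lactating mice under 200, and at 0.08, 0.10, 0.12 and 0.11 and 0.13, 0.06 and 0.10 TPM at 200 and above. All 7 mice at 200 and above were lower than all 6 under 200, with log2 differences of -1.70 (adjusted p = 2.45e-07) in nulliparous and -2.02 (adjusted p = 1.33e-07) in lactating mice. A Zhx2 allele with reduced expression is known in the BALB/cJ substrain. The labels name no substrain, and its part in the results was not tested. Afp (ENSMUSG00000054932.6, chromosome 5, 90490737 to 90508907, plus strand), alpha-fetoprotein, was at 2.49, 1.60 and 3.16 and 3.30, 4.98 and 3.89 TPM under 200 and at 2.40, 2.82, 1.74 and 2.10 and 6.01, 6.55 and 7.12 TPM at 200 and above. Lactating mice were above nulliparous mice in both ranges, with log2 differences of 0.58 (adjusted p = 0.0502) and 1.22 (adjusted p = 0.00103), and the responses differed by 0.64 (95% interval 0.11 to 1.17, adjusted p = 0.256), which was not called. H19 (ENSMUSG00000000031.16, chromosome 7, 142575529 to 142578143, minus strand), an imprinted noncoding RNA, was at 14.1, 2.83 and 0.05 and 0.37, 0.50 and 0.98 TPM under 200 and at 34.5, 35.8, 65.4 and 67.8 and 125, 99.1 and 475 TPM at 200 and above. Its responses differed by 3.18, with a wide interval (95% interval 0.87 to 5.49, adjusted p = 0.217), and nulliparous mice under 200 ranged from 0.05 to 14.1 TPM.

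The 8 largest rises and 8 largest falls among the 70 shared genes, ranked by the smaller of the 2 responses, were examined by mouse. Of these 16 genes, 7 had responses within 2-fold of each other on the log2(TPM + 1) scale (Akr1b7, Dntt, Scd1, Elovl6, Saa3, Lect2 and Ankrd55) and 9 could not be placed. For Dntt this held on that scale only, since its linear ratios were 6.36 under 200 and 15.0 at 200 and above. Over the 70 genes the counts were 30 within 2-fold and 1 called different, with 13 intervals that missed 0.

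Scd1 (ENSMUSG00000037071.3, chromosome 19, 44394455 to 44407879, minus strand), the desaturase that makes monounsaturated fatty acids, was the most abundant of these genes. Its TPM were 738, 417 and 404 in nulliparous and 1709, 2441 and 1836 in lactating mice under 200, and 1069, 723, 670.3 and 852 and 3442, 3192 and 3403 at 200 and above. The groups were far apart in both ranges. Scd1 rose by 1.98 (adjusted p = 0.000409) and 2.04 (adjusted p = 0.000188), linear ratios of 3.84 and 4.04, and the difference of 0.06 (95% interval -0.61 to 0.73) kept the responses within 2-fold. Elovl6 (ENSMUSG00000041220.10, chromosome 3, 129532355 to 129638495, plus strand), which elongates palmitate, was at 12.6, 11.4 and 12.7 and 52.6, 65.3 and 29.6 TPM under 200 and at 19.6, 10.5, 12.7 and 18.6 and 62.8, 54.3 and 67.5 TPM at 200 and above, and rose by 1.85 and 1.97 (adjusted p = 0.00160 and 0.000607).

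Akr1b7 (ENSMUSG00000052131.7, chromosome 6, 34412334 to 34423142, plus strand), an aldose reductase-like enzyme, rose by 2.51 under 200 and 2.46 at 200 and above (adjusted p = 0.000719 and 0.000509). Its values were 2.97, 2.70 and 2.58 and 23.7, 24.4 and 14.4 TPM under 200 and 6.82, 1.61, 2.93 and 4.03 and 20.6, 26.3 and 24.4 TPM at 200 and above. Lpl (ENSMUSG00000015568.16, chromosome 8, 68880491 to 68907448, plus strand), lipoprotein lipase, which releases fatty acids from circulating triglyceride and is normally low in adult liver, was at 5.03, 1.93 and 1.94 and 14.5, 20.6 and 17.7 TPM under 200 and 4.36, 2.52, 7.63 and 9.78 and 38.6, 37.3 and 72.7 TPM at 200 and above. It rose by 2.30 and 2.90 (adjusted p = 0.00436 and 0.000740), and the interval of the difference (95% interval -0.60 to 1.79) reached past 2-fold. In all lactating mice Akr1b7 and Lpl were higher than in any nulliparous mouse.

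The other rises of this group were Thrsp, a regulator of lipogenesis (2.03 under 200 and 1.75 at 200 and above), the translation inhibitor Eif4ebp3 (2.97 and 1.93), Dntt, the terminal transferase of lymphocyte precursors (2.09 and 2.31), and the gene model AC151971.2 (3.06 and 2.147). Eif4ebp3 had 5.63 to 9.11 TPM in nulliparous and 42.5 to 87.9 TPM in lactating mice under 200, and 5.40 to 11.3 and 31.6 to 37.8 TPM at 200 and above, and its interval (95% interval -1.83 to -0.26) missed 0 with an adjusted p of 0.225. Dntt was at most 2.29 TPM in a nulliparous mouse and at least 4.18 TPM in a lactating one. AC151971.2 had linear ratios of 15.3 under 200 and 19.1 at 200 and above, the reverse of the order of its log2 differences.

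Dio1 (ENSMUSG00000034785.14, chromosome 4, 107291465 to 107307169, minus strand), the deiodinase that activates thyroid hormone in liver, had the largest shared fall. Nulliparous and lactating mice were at 29.5, 68.4 and 37.1 and 0.52, 0.58 and 0.66 TPM under 200 and at 64.4, 80.3, 53.4 and 62.7 and 6.84, 8.44 and 3.59 TPM at 200 and above. Lactating mice were lower than all nulliparous mice in both ranges, and those under 200 were lower than those at 200 and above. Dio1 fell by 4.77 under 200 (adjusted p = 8.67e-06) and by 3.23 at 200 and above (adjusted p = 4.84e-05), and the interval of the difference (95% interval 0.68 to 2.40) missed 0 but its adjusted p was 0.151. Tsc22d1 (ENSMUSG00000022010.19, chromosome 14, 76414961 to 76507765, plus strand), a leucine zipper regulator of transcription, was similar, at -2.77 and -1.48 with a difference of 1.29 (95% interval 0.44 to 2.13, adjusted p = 0.189).

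Lect2 (ENSMUSG00000021539.9, chromosome 13, 56542464 to 56548502, minus strand), a hepatokine, fell within 2-fold of the same size in both ranges, from 365, 303 and 354 to 111, 71.7 and 90.0 TPM under 200 and from 425, 394, 451 and 413 to 151, 148 and 155 TPM at 200 and above (-1.91 and -1.47, adjusted p = 1.41e-05 and 4.05e-05). Saa3, an acute phase apolipoprotein, fell from 5.93 to 7.74 to 0.87 to 2.04 TPM and from 24.7 to 28.6 to 4.74 to 9.85 TPM (-1.77 and -1.69), although its level was higher at 200 and above in both stages (1.78 and 1.85). The remaining falls were the organic anion transporter Slc22a7 (-2.05 and -1.45), the female-predominant P450 Cyp2b13 (-2.01 and -1.52), Mup7 (-1.62 and -1.87) and the ankyrin repeat gene Ankrd55 (-1.44 and -1.51). Cyp2b13, Mup7 and Saa3 belong to families of close paralogs.

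**Figure D4:**
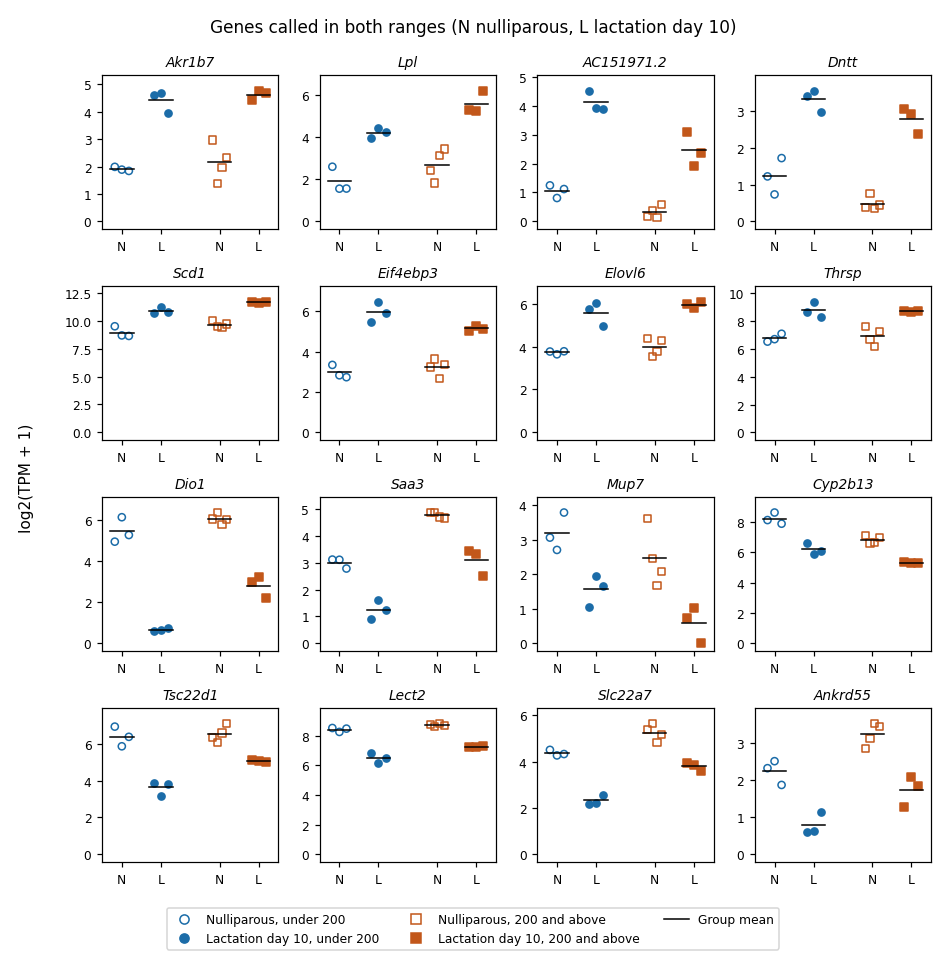
Expression per mouse as log2(TPM + 1) (y axes, each panel with its own scale from 0) for the 16 genes with the largest shared rises and falls in both ranges of animal number. Points are mice in the same 4 groups, and lines mark group means; in each panel lactating and nulliparous mice do not overlap in either range.

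The gene lists below are read against the shares of all genes with an adjusted p under 0.05, 6.65% higher and 6.94% lower under 200 and 3.18% and 6.09% at 200 and above. Of 16 genes of fatty acid synthesis, 13 rose under 200 and 11 at 200 and above, 10 of them in both (9 under median-ratio scaling), and by limma 0 fell in either range, also at an unadjusted p under 0.05, with median log2 differences of 1.07 and 1.25 against 0.01 and -0.06 over all genes. Fasn, fatty acid synthase, rose by 1.73 and 1.97, and Acly, which supplies acetyl-CoA, by 1.002 and 1.29. Pnpla3, a lipid droplet hydrolase, had the largest mean response of the list, at 0.46, 0.09 and 0.48 and 3.38, 4.39 and 2.01 TPM under 200 and 2.88, 0.93, 1.25 and 1.17 and 12.99, 12.9 and 14.7 TPM at 200 and above. It rose by 1.64 and 2.56, with a difference of 0.92 (95% interval 0.16 to 1.68, adjusted p = 0.254). Its linear ratios were close, at 9.50 under 200 and 8.68 at 200 and above. With nulliparous values under 200 all below 1 TPM, the log2 difference depends on the added 1. The interval of the difference missed 0 for 5 of the 16 genes, and limma called no difference.

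Sterol synthesis also rose in both ranges, with 17 of 24 genes higher under 200 and 13 at 200 and above (18 under median-ratio scaling), 12 of them in both (16), and medians of 0.82 and 0.69. Mvd, of the mevalonate steps, rose by 2.14 (adjusted p = 0.00382) and 1.75 (adjusted p = 0.00777). Sqle, which opens the sterol branch, rose by 2.07 (adjusted p = 0.00583) and 1.43 (adjusted p = 0.0257).

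Of 24 genes of fatty acid oxidation and PPARa targets, 12 had an interval of the difference that missed 0, or 7 under median-ratio scaling, against 14.8% of all genes, and only Cyp4a10 was called. Under 200, 6 members rose and 2 fell, and at 200 and above 2 rose and 8 fell (3 and 4 under median-ratio scaling), with medians of 0.07 and -0.13. Cpt1a, which admits fatty acids to mitochondria, fell at 200 and above (-0.78, adjusted p = 0.00199) against -0.40 (adjusted p = 0.0540) under 200. Vnn1, a pantetheinase, fell there too (-1.28, adjusted p = 0.0106) against 0.45 under 200, a difference of -1.73 (95% interval -2.57 to -0.89, adjusted p = 0.112). Bdh1, which makes the ketone body beta-hydroxybutyrate, fell alike in both (-0.93 and -0.84, interval of the difference within 2-fold). Nulliparous mice at 200 and above had lower levels than those under 200 for 13 of the 24 genes, and lactating mice for 15, against 8.32% and 6.72% of all genes.

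Of 20 cell cycle genes, 7 rose at 200 and above (9 under both other scalings) and by limma 0 rose under 200. In that range 2 were higher and 2 lower at an unadjusted p under 0.05, and Mcm7 fell under both other scalings. A difference between the ranges was not shown for any of the 20, since limma called none and 2 intervals missed 0 (4 under either other scaling). The difference of the responses was positive for 20 of 20 members under all 3 scalings. Its median as deposited was 0.51, against -0.08 over all genes. The members are not independent replicates, so their shared sign is not a test of the list. Cdc20, an activator of the anaphase-promoting complex, was at 1.82, 0.80 and 6.31 and 10.1, 4.53 and 2.33 TPM under 200 and 2.09, 0.85, 3.56 and 2.29 and 11.9, 8.18 and 12.2 TPM at 200 and above. Its groups overlapped under 200 and were apart at 200 and above, with log2 differences of 0.82 (adjusted p = 0.292) and 1.93 (adjusted p = 0.0229). Cdk1, the mitotic kinase, behaved alike (0.72 and 1.66, adjusted p = 0.330 and 0.0362), and NUL_13 had the highest level among nulliparous mice for both genes. Foxm1, a mitotic transcription factor, had a mean under 1 TPM and was not tested.

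Genes of bile acid synthesis were examined because bile acid metabolism was among the study's questions. Cyp7a1 (ENSMUSG00000028240.2, chromosome 4, 6265612 to 6275633, minus strand), the rate-limiting enzyme, was at 23.2, 15.7 and 68.3 TPM in nulliparous and 115, 93.3 and 70.7 TPM in lactating mice under 200, and at 22.1, 18.7, 15.0 and 18.01 and 49.4, 58.8 and 27.4 TPM at 200 and above. The groups did not overlap in either range, although NUL_13 reached almost the level of LAC_133. Cyp7a1 rose under 200 (1.61, adjusted p = 0.0277), the difference at 200 and above was 1.19 (adjusted p = 0.0820), and the responses differed by -0.41 with an interval too wide to place them (95% interval -1.67 to 0.84, adjusted p = 0.755). Cyp8b1, which makes cholic acid, rose under 200 (0.66, adjusted p = 0.0150) and differed by 0.42 (adjusted p = 0.0847) at 200 and above. Its responses lay within 2-fold (95% interval -0.69 to 0.20).

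Cyp27a1, of the alternative pathway, and Nr1h4, which encodes FXR, had log2 differences between -0.09 and 0.20 in the 2 ranges, and the difference of their responses lay within 2-fold. Rxra, the partner of FXR, was at 75.2 to 77.9 TPM in nulliparous and 72.8 to 82.8 TPM in lactating mice under 200, and at 98.1 to 113 and 79.4 to 90.5 TPM at 200 and above. It fell at 200 and above (-0.34, adjusted p = 0.0133) and not by the test under 200 (0.05, adjusted p = 0.732), and the difference of -0.39 was not called (95% interval -0.63 to -0.15, adjusted p = 0.169). Nr0b2, the repressor SHP, was at -0.23 (adjusted p = 0.706) and -0.99 (adjusted p = 0.0858). Hsd3b7, which acts after Cyp7a1, fell in both (-0.80 and -0.65, adjusted p = 0.00129 and 0.00240). Over the 15 genes of this list 12 had responses within 2-fold, near the share of 86.0% among all genes tested. Of the 15, 2 rose and 1 fell under 200 while 2 fell at 200 and above.

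Of 18 genes of endoplasmic reticulum folding, 4 rose under 200 and by limma 0 at 200 and above, where 2 were higher at an unadjusted p under 0.05. Hyou1, a chaperone, was at 17.9, 20.2 and 26.1 and 64.9, 62.6 and 60.5 TPM under 200 and 84.6, 72.3, 94.7 and 178 and 117, 130.1 and 149 TPM at 200 and above. It rose under 200 (1.52, adjusted p = 0.00344), the difference at 200 and above was 0.38 (adjusted p = 0.376), and the responses differed by -1.15 (95% interval -1.90 to -0.39, adjusted p = 0.191), which was not called. Nulliparous mice at 200 and above were all higher than the lactating mice under 200. Between nulliparous mice, 14 of the 18 genes (13 under median-ratio scaling) were higher at 200 and above, against 20.1% of all genes as deposited. Dnajb9, a co-chaperone, had log2 differences of 1.25 (adjusted p = 0.00216) and 0.54 (adjusted p = 0.0794).

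The major urinary proteins gave a split list, with 6 of 9 lower and 1 higher under 200 and 1 lower and 2 higher at 200 and above. In the latter range 3 of the 9 were listed at 0 in all 7 mice and could not fall, and Mup1 was at no more than 0.31 TPM, so the counts of the 2 ranges cannot be compared. The summed TPM of the 12 listed members, tested or not, was not lower there, though several single members were at or near 0. This sum was 2447 to 3571 in nulliparous and 1036 to 1303 in lactating mice under 200. At 200 and above the sums were 4613 to 7652 and 4362 to 6741. Mup17 fell under 200, from 30.9 to 105 to 5.50 to 13.8 TPM (-2.38, adjusted p = 0.00392), and was at most 1.42 TPM at 200 and above. Mup genes are near-identical, so the values of single members are uncertain. Interferon-stimulated and MHC class I genes fell under 200 in 14 of 22 cases and at 200 and above in 5 (2 under median-ratio scaling), with medians of -0.57 and -0.26. Gbp3 and Gbp2, interferon-induced GTPases, fell alike (-1.03 and -0.99 for Gbp3, -0.999 and -0.88 for Gbp2), whereas Ifit3 fell under 200 (-0.88, adjusted p = 0.0122) and had a difference of 0.10 at 200 and above, with an uncalled difference of the responses (0.98, adjusted p = 0.155).

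In iron handling, Hamp, which encodes hepcidin, the hormone that limits iron export, was at 3154, 5313 and 6071 and 589.7, 123 and 1524 TPM under 200 and 10404, 9358, 8814 and 8008 and 1764, 3488 and 2219 TPM at 200 and above. The lactating mice were lower in both ranges without overlap, with log2 differences of -3.28 (adjusted p = 0.00776) and -1.93 (adjusted p = 0.0674). Tfrc, the transferrin receptor, rose in both (2.29 and 1.02, adjusted p = 0.000180 and 0.0138), and its difference of -1.28 (95% interval -1.98 to -0.57, adjusted p = 0.151) was not called. Of the 13 iron genes, 2 rose and 4 fell under 200, and 3 rose and 1 fell at 200 and above.

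Glucose genes included Pck1, the gluconeogenic carboxykinase, which fell at 200 and above (-1.49, adjusted p = 0.0241) against -0.10 (adjusted p = 0.886) under 200. The difference for Pck1 was -1.39 (95% interval -2.56 to -0.22, adjusted p = 0.263) and was not called. Among amino acid enzymes, Oat, ornithine aminotransferase, fell at 200 and above (-1.17, adjusted p = 0.00263) against -0.51 (adjusted p = 0.107) under 200, from a lower level (215 to 357 against 1105 to 1469 TPM in nulliparous mice). Asl, of the urea cycle, had log2 differences of 0.44 (adjusted p = 0.152) and 0.59 (adjusted p = 0.0648). Over that list of 19, 1 gene rose under 200 and 3 fell at 200 and above, and the only member called different was Sds.

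Among lipoprotein and lipase genes, 4 rose and 3 fell under 200 and 3 rose and 2 fell at 200 and above of 16 (2 and 2, and 3 and 1, under median-ratio scaling). Cd36, a fatty acid transporter, rose by 0.91 (adjusted p = 0.00942) and 1.08 (adjusted p = 0.00267), within 2-fold, although nulliparous mice under 200 (48.2 to 79.5 TPM) exceeded all lactating mice at 200 and above (35.2 to 46.8 TPM). Of the 7 thyroid hormone genes tested, 3 fell under 200 and 4 at 200 and above. In the growth hormone and IGF list of 12, the hormone receptor Ghr and the signal transducers Stat5a and Stat5b fell in both ranges, Stat5a by 0.48 and 0.63. At 200 and above Stat5b no longer passed under either other scaling, nor Ghr under median-ratio scaling. Igfbp2, a carrier of insulin-like growth factors, rose at 200 and above (0.68, adjusted p = 0.0488) and had a difference of 0.42 (adjusted p = 0.199) under 200.

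Counts of 1 or 2 members, as for the amino acid, clock and acute phase genes under 200, lie near the shares of all genes given above. Drug-metabolizing P450 genes numbered 24, of which 6 rose and 3 fell under 200 and 3 rose and 3 fell at 200 and above. The interval of the difference missed 0 for 9 of them under all 3 scalings, against 14.8% of all genes, and limma called none. Between the ranges, 12 were lower at 200 and above in nulliparous mice and 13 in lactating mice, against 8.32% and 6.72% of all genes. Cyp3a41a, a female-specific member, rose under 200 (2.63, adjusted p = 0.0103) with a difference of 1.62 (adjusted p = 0.0688) at 200 and above. Of 19 acute phase genes, 2 rose and 2 fell under 200 and 6 fell at 200 and above. Saa1 and Saa2 had log2 differences of -2.70 and -2.11, and -2.14 and -2.10, none past the test, with NUL_1 and NUL_221 far above the rest of their groups. Of 15 clock genes, 2 rose under 200, Per2 (0.96, adjusted p = 0.00233) and Tef (0.83, adjusted p = 0.0345), and by limma 0 passed at 200 and above, where 1 was higher and 1 lower at an unadjusted p under 0.05. By limma 0 of 12 heat shock genes passed in either range, with 4 and 5 higher at an unadjusted p under 0.05, and Hspa1b and Hsp90aa1 had log2 differences of 0.88 and 2.22, and 0.51 and 0.75.

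**Figure D5:**
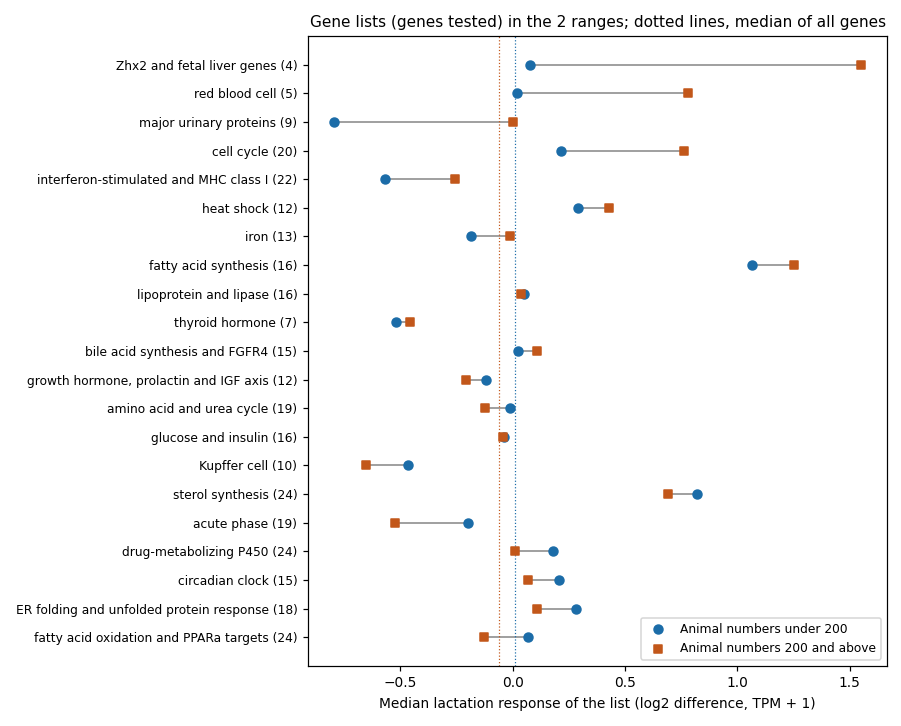
Median log2(TPM + 1) lactation response of each gene list under 200 and at 200 and above (x axis), with 1 line joining the 2 values of each list, the number of genes tested after each list name on the y axis, and dotted lines at the medians of all genes. Fatty acid synthesis (1.07 and 1.25) and sterol synthesis (0.82 and 0.69) lie to the right of 0 in both ranges, and Kupffer cell markers (-0.47 and -0.65) to the left in both.

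Markers of other liver cells moved with lactation too. All 10 Kupffer cell markers had responses within 2-fold of each other in the 2 ranges, as had 86.0% of all genes tested. Of the 10 markers, 4 fell under 200 and 9 at 200 and above (3 and 6 under median-ratio scaling), among them Clec4f (-0.58 and -0.52) and Cd5l (-0.62 and -0.64), whose falls at 200 and above did not pass under median-ratio scaling, nor those of Cd5l in either range under quantile normalization. Their summed TPM was 285 to 368 in nulliparous and 195 to 289 in lactating mice under 200, and 451 to 537 and 274 to 369 at 200 and above. In bulk liver RNA, fewer cells of a type and less RNA per cell cannot be told apart. Sinusoidal endothelial markers fell in 3 of 8 cases under 200 and 1 at 200 and above, and stellate cell and fibroblast markers in 2 and 3 of 8. Of 8 hepatocyte markers, 1 rose and 1 fell under 200, and 3 rose and by limma 0 fell at 200 and above, also at an unadjusted p under 0.05. Alb, albumin, rose by 0.90 and 0.88 (adjusted p = 0.00233 and 0.00157). Under quantile normalization, which gives the most abundant gene of each mouse the same value, the adjusted p at 200 and above was 1. TPM share a fixed total, of which Alb alone took 4.25 to 5.10% in nulliparous and 8.11 to 9.21% in lactating mice under 200, and 5.13 to 6.70% and 10.6 to 12.7% at 200 and above.

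Pancreatic acinar markers, which liver should lack, summed to 0.17 to 36.6 TPM in lactating mice under 200 and to at most 2.03, 4.62 and 5.04 TPM in nulliparous mice under 200, nulliparous mice at 200 and above and lactating mice at 200 and above. The highest of them was Ctrb1, a chymotrypsinogen, at 5.30, 0.03 and 16.0 TPM in LAC_36, LAC_102 and LAC_133, while Cpa1, Cpb1 and Pnlip were listed at 0 in 10 of the 13 mice. The part of such tissue in the differences between the ranges was not tested. Lymphocyte, neutrophil, cholangiocyte, adipocyte and mesothelial lists had at most 4 members tested each. Ighm, the immunoglobulin heavy chain of naive B cells, rose under 200 (0.98, adjusted p = 0.0257), Cd79b of the B cell receptor fell in both (-0.66 and -0.85), and Spp1, osteopontin, also made by cholangiocytes, fell in both (-0.62 and -0.80). No gene of these lists had responses called different by limma.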

How the data were processed

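RNA was isolated from flash frozen liver, poly(A) RNA was enriched with oligo(dT), and paired-end libraries made with the NEBNext Ultra kit were sequenced on a NovaSeq instrument. The authors aligned the reads to GRCm38 (mm10), estimated gene expression with RSEM 1.3.1 on an Ensembl annotation and deposited TPM values, 1 per gene and mouse, over 51826 gene entries. Reads compatible with more than 1 gene are shared out by RSEM, so values of near-identical paralogs (Mup, Saa, Cyp2b, Cyp3a, Cyp4a, Gstm, globin) are uncertain, and whether counting used strand is not given in the sources used here. TPM keep no depth and are not counts, so no count test was run. Among 78 pairs of mice, 0 were identical.

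From these, log2(TPM + 1) was computed for the 11535 genes whose mean over the 13 mice reached 1 TPM. Limma-trend (limma 3.58.1, R 4.3.3) was fitted with 4 means, stage by range of animal number (under 200, or 200 and above), 9 residual degrees of freedom and Benjamini-Hochberg adjustment over all genes, and was tested on simulated data. Calls needed an adjusted p under 0.05 and a log2 size of 1. "Within 2-fold" means that the 95% interval of the difference of responses lay inside -1 to 1 on the log2(TPM + 1) scale. For genes near or under 1 TPM, linear ratios can differ by more. Gene positions are from GENCODE M21 on GRCm38.

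The comparison, gene lists and marker lists were chosen with earlier results of these data known. Named genes were the called differences of responses, the 8 largest shared rises and falls, 7 bile acid and proliferation genes, Zhx2 with 3 targets, and the 2 members of each list with the largest mean response or any with an adjusted p under 0.05 for the difference; other members were named as examples after their values were seen, and some genes are not reported here. Alternatives were pseudocounts of 0.1 and 0.5, filters at 0.1 TPM or none, involution mice as an added mean, median-ratio and quantile scaling, robust moderation, no size threshold, separate fits and each mouse left out.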

Additional observations from a re-analysis of the deposited data

Results flagged for a closer look

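Differences between the 2 responses were called by limma's test of the difference itself for 15 genes. They were positive for Gpc3 (2.45), Alas2 (1.78), Mup1 (1.69), Elovl3 (1.67), Sult2a7 (1.62), Hcn3 (1.45) and Cyp4a10 (1.33). They were negative for Lad1 (-1.88), Pcp4l1 (-1.72), Ntrk2 (-1.52), Dmpk (-1.41), Ugt3a1 (-1.30), Rasgrp2 (-1.13), Rapgef4 (-1.09) and Sds (-1.06), all as log2 differences at 200 and above minus under 200. Mup1, Elovl3, Sult2a7 and Lad1 were at no more than 0.31, 0.08, 0.07 and 0.21 TPM in any mouse at 200 and above, so they passed the filter on low values only through the mice under 200, and a response at 200 and above could hardly be measured for them. Under 200 the nulliparous and lactating means were 0.78 and 0.59 TPM for Gpc3 and 0.37 and 0.02 TPM for Ntrk2. Gpc3 and Ntrk2 passed that filter only through the mice at 200 and above. The linear ratios of Mup1 were 0.285 and 0.372 and those of Ntrk2 0.0636 and 0.0474 under 200 and at 200 and above.

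Single mice stood apart in the group of 4 nulliparous mice at 200 and above, the only group large enough for Dixon's gap test, which was applied to 70 genes. NUL_221 had 314.94 TPM of Saa1, with the next mouse at 54.2 TPM, and 223.86 TPM of Saa2, with the next at 36.7 TPM. NUL_220 had 2.88 TPM of Pnpla3 against a next value of 1.25 TPM, 24.79 TPM of Cd36 against 17.4 TPM, and 0.21 TPM of Lad1 against 0.08 TPM. NUL_226 had 0.70 TPM of Foxm1 against 0.29 TPM. Chance passes this limit in about 1 of 20 groups.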

How the results depend on the processing

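The median log2 response over all genes went from -0.06 to 0.02 at 200 and above under median-ratio scaling, where 588 genes then rose and 411 fell in place of 367 and 702, and from 0.01 to -0.01 under 200 without NUL_4 or LAC_36. Of 1145 alternative values for 53 named-gene results none changed sign, 1017 kept their direction and side of the threshold and 128 kept the direction but lost the call. These results were chosen in the same mice, so a kept sign adds no separate support. The count of genes with different responses was 15, and became 8 with a pseudocount of 0.1, 9 with no filter on low values, and 9 when each of the 4 groups had to reach a mean of 1 TPM, an alternative chosen after seeing the data. Each mouse left out in turn gave 0 to 15 genes, with 0 without LAC_36 (1489 at an unadjusted p under 0.05), 5 without LAC_213 and 7 without LAC_133. The cause was not tested. By gene, Ugt3a1 was called in 21 of 22 alternatives, Alas2, Rapgef4 and Rasgrp2 in 20 of 22, and Mup1 in 6 of 21.

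Genes called under 200 (175) became 269 with a pseudocount of 0.1 and 1568 with no size threshold, and fell as low as 131 as mice were left out. Those at 200 and above (171) became 1069 with no size threshold and ranged from 146 to 175. The mean response (139) gave 275 with a pseudocount of 0.1 and 2438 with no size threshold, and 129 to 175 as mice were left out. Genes shared by the ranges (70) became 442 with no size threshold and ranged from 53 to 75, and a separate fit for each range gave 56. The share of higher genes among all with an adjusted p under 0.05 in the mean response went from 38.6% to 56.5% under median-ratio scaling. No paired analysis was possible because the groups share no animal numbers.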
